A study of Homo sapiens with 4 samples.

Results

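The miR-181 family was described through its 4 guide strands, hsa-miR-181a-5p, hsa-miR-181b-5p, hsa-miR-181c-5p and hsa-miR-181d-5p, taken by name out of 1474 mature miRNAs that had at least 1 count in any library. All 4 were listed in each of the 4 libraries. Small RNA was sequenced from HCT116 and RKO, which are human colorectal cancer cell lines without irradiation, and from HCT116-R and RKO-R, their acquired radioresistant derivatives, which had received repeated doses of 4 Gy, reaching 40 Gy in all, and were then kept without irradiation for weeks. There was 1 library per line, so no difference between lines had a replicate check, and each radioresistant line was a single derived culture. Library totals ranged from 6818497 to 7140460 counts.

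A mature miRNA guides an Argonaute protein to messenger RNAs, mostly through its seed, the bases at positions 2 to 8. Its hairpin precursor yields a guide strand, which is kept, and a passenger arm, which is mostly degraded. The miR-181 family is known for setting the sensitivity of developing T cells to antigen and for its abundance in lymphoid cells and brain, and messenger RNAs of the apoptosis regulator BCL2 are among its known targets. The study compared the radioresistant lines with their parental lines to find miRNAs altered with radioresistance.

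The mature guide strands are shown because the family is defined by their common seed and because their small differences decide how reads could be counted. They are given 5′ to 3′ from RefSeq (GRCh38.p14) with the seed in capitals.
miR-181a-5p: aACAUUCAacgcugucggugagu
miR-181b-5p: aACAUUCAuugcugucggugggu
miR-181c-5p: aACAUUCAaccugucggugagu
miR-181d-5p: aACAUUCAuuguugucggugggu
All 4 carried the same seed. The only other human miRNA of the RefSeq table with these bases at positions 2 to 8, miR-4262, was listed in none of the 4 libraries. Counted from the 5′ end, miR-181b-5p differed from miR-181a-5p by A9U, C10U and A21G, and miR-181d-5p differed from miR-181b-5p by C12U alone. MiR-181c-5p, with 22 bases against 23, was 1 edit away from miR-181a-5p. Because miR-181a-5p and miR-181c-5p, and likewise miR-181b-5p and miR-181d-5p, are near-identical, their division depends on how reads were assigned, which is not given in the sources used here, and the sums are reported beside the single values.

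The family is encoded at 3 loci (GRCh38, GENCODE release 29). MIR181A1, at chr1:198859044-198859153, and MIR181B1, at chr1:198858873-198858982, lie 61 bases apart on the minus strand, within MIR181A1HG, a long non-coding RNA gene, outside its exons. MIR181A2, at chr9:124692442-124692551, and MIR181B2, at chr9:124693710-124693798, lie 1158 bases apart on the plus strand, between exons of the non-coding MIR181A2HG and opposite an intron of NR6A1. MIR181C, at chr19:13874699-13874808, and MIR181D, at chr19:13874875-13875011, lie 66 bases apart on the plus strand in an intron of NANOS3. The same mature miR-181a-5p comes from both MIR181A1 and MIR181A2, and the same miR-181b-5p from both MIR181B1 and MIR181B2, so their counts are not divisible by locus. MiR-181c-5p and miR-181d-5p each have a single hairpin.

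Levels are given in CPM, the count divided by the library total and scaled to a total of 1000000, with 95% Wilson confidence intervals that cover counting error only. Markers of the labelled tissue were present, with 7 of 8 colorectal epithelial miRNAs above 3 counts in each library, and miR-215-5p at 0 counts in all but HCT116-R, where it had 3. The summed level of that list was 62978 CPM in HCT116 against 58544 in HCT116-R, and 10096 in RKO against 11703 in RKO-R, so the sum was lower in the RKO lineage. Most of the sum in the HCT116 lineage was miR-200c-3p, with 291469 counts in HCT116 and 649 in RKO, and miR-429, with 108375 and 51772. MiR-141-3p, counted above as present, had 6630 counts in HCT116 against 8320 in HCT116-R, but only 17 in RKO against 41 in RKO-R. The list did not move as one. MiR-192-5p had 226 CPM in HCT116 against 202 in HCT116-R, and 220.4 in RKO against 323 in RKO-R. MiR-194-5p had 112 CPM in HCT116 against 65.1 in HCT116-R, and 75.2 in RKO against 119 in RKO-R. Both were thus higher in RKO-R than in HCT116-R, but lower in RKO than in HCT116. The 7 blood cell miRNAs, looked at because blood cells also express miR-181, summed to 47.8 CPM in HCT116 against 43.6 in HCT116-R, and 16.1 in RKO against 12.6 in RKO-R, and 6, 6, 2 and 3 of the 7 were above 3 counts, with miR-144-3p at 0 counts in HCT116 and RKO-R and miR-142-5p at 0 in RKO and RKO-R. The 3 muscle miRNAs summed to between 0.840 and 1.76 CPM. The part of these lists in the results below was not tested.

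The most abundant member was miR-181a-5p, encoded on chromosomes 1 and 9. It had 28724 counts in HCT116 against 35654 in HCT116-R, and 35362 in RKO against 38567 in RKO-R. Its level was 4209.7 CPM (4161 to 4259) in HCT116 against 5229 (5175 to 5283) in HCT116-R, and 4952 (4901 to 5004) in RKO against 5579 (5524 to 5635) in RKO-R. It stood between rank 32 and rank 34 among all miRNAs in every library. By library totals the order from lowest to highest was HCT116, RKO, HCT116-R and RKO-R, although the 4 levels lay close together. No counting intervals overlapped, but at such counts these intervals are narrow. The order of RKO and HCT116-R turned with the denominator. Without 13 miRNAs in it, an alternative described at the end, miR-181a-5p was at 12584 CPM in HCT116-R and 13034 in RKO.

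MiR-181b-5p, which is encoded beside miR-181a-5p at both loci, had 4561 counts in HCT116 against 5567 in HCT116-R, and 8190 in RKO against 8476 in RKO-R. Its levels were 668 CPM (649 to 688), 816 (795 to 838), 1147 (1122 to 1172) and 1226 (1200.3 to 1252) in the same order of lines, which was also the order from lowest to highest. The intervals did not overlap.

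MiR-181c-5p had 1031 counts in HCT116 against 940 in HCT116-R, and 16026 in RKO against 10701 in RKO-R. Its levels were 151 CPM (142 to 161) in HCT116 against 138 (129 to 147) in HCT116-R, and 2244 (2210 to 2279) in RKO against 1548 (1519 to 1578) in RKO-R. The RKO lineage was far above the HCT116 lineage, the intervals of HCT116 and HCT116-R overlapped, and RKO was above RKO-R. Its rank was 139 and 140 in the HCT116 lineage, parental line first, against 47 and 54 in the RKO lineage.

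MiR-181d-5p, the least abundant member in each library, had 211 counts in HCT116 against 190 in HCT116-R, and 2589 in RKO against 2125 in RKO-R. This gave 30.9 CPM (27.0 to 35.4), 27.9 (24.2 to 32.1), 363 (349 to 377) and 307 (295 to 321). As for its neighbour miR-181c-5p, RKO was highest and RKO-R next by library totals, and the intervals of HCT116 and HCT116-R overlapped. For miR-181d-5p the order of RKO and RKO-R depended on the scaling. Its log2 fold change in RKO-R against RKO was -0.24 by library totals and -0.0016 with the scaling of the tests below.

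**Figure D1:**
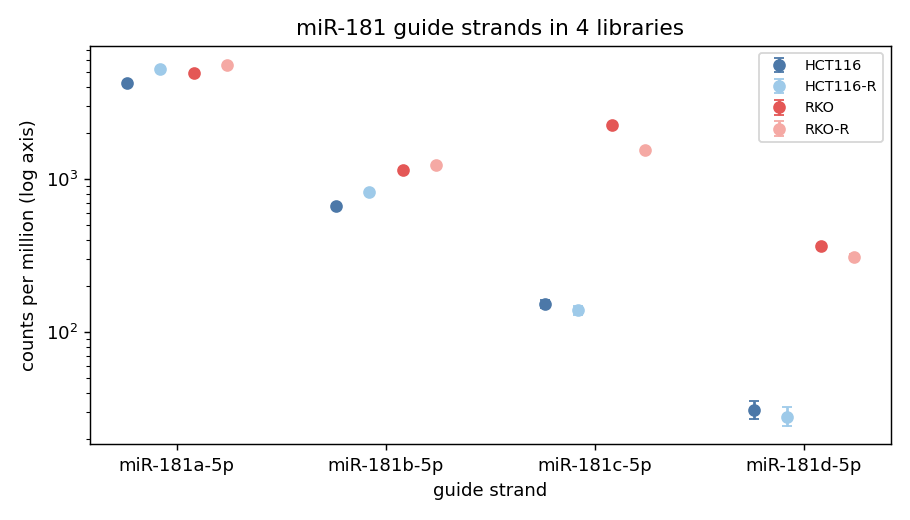
Level of each miR-181 guide strand in CPM (log axis) in each of the 4 libraries, with bars for the 95% Wilson confidence interval of counting error, most of them smaller than the point. MiR-181a-5p lay between 4209.7 and 5579 CPM in the 4 libraries, while miR-181c-5p and miR-181d-5p were separated by lineage, from 138 to 2244 CPM and from 27.9 to 363 CPM.

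Added together, the 4 guide strands held 34527 counts in HCT116 against 42351 in HCT116-R, and 62167 in RKO against 59869 in RKO-R. The family sum was 5060.2 CPM (5007 to 5114) in HCT116 against 6211 (6153 to 6270.4) in HCT116-R, and 8706 (8638 to 8775) in RKO against 8660.2 (8591 to 8730) in RKO-R, or between 0.506% and 0.871% of all counts. The intervals of RKO and RKO-R overlapped, and both were above the HCT116 lineage.

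The members on chromosome 19 made up a large part of the difference in the sum, and how large depended on the scaling. By library totals, between RKO and HCT116 the family sum differed by 3646 CPM, of which miR-181c-5p made up 57.4% and miR-181d-5p 9.10%, against 20.4% for miR-181a-5p and 13.1% for miR-181b-5p. Between RKO-R and HCT116-R the difference was 2449 CPM, with 57.6% from miR-181c-5p and 11.4% from miR-181d-5p. Both together made up 66.5% and 69.0% by library totals, but 75.6% and 46.2% with TMM, the scaling of edgeR used in the tests below, and the order of these shares turned between the scalings.

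The make-up of the family differed between the lineages. MiR-181a-5p was 83.2% of the family sum in HCT116 (95% Wilson interval 82.8 to 83.6), 84.2% in HCT116-R (83.8 to 84.5), 56.9% in RKO (56.5 to 57.3) and 64.4% in RKO-R (64.0 to 64.8). MiR-181b-5p held a nearly even share of 13.2%, 13.1%, 13.2% and 14.2% in the same order. MiR-181c-5p was 2.99% in HCT116 (2.81 to 3.17), 2.22% in HCT116-R (2.08 to 2.36), 25.8% in RKO (25.4 to 26.1) and 17.9% in RKO-R (17.6 to 18.2). MiR-181d-5p was 0.611%, 0.449%, 4.16% and 3.55%. The chromosome 19 pair, miR-181c-5p and miR-181d-5p together, thus held 3.60% (3.41 to 3.80) of the family in HCT116, 2.67% (2.52 to 2.83) in HCT116-R, 29.9% (29.6 to 30.3) in RKO and 21.4% (21.1 to 21.8) in RKO-R. In both lineages that share was lower in the radioresistant library than in the parental one, beyond counting error.

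**Figure D2:**
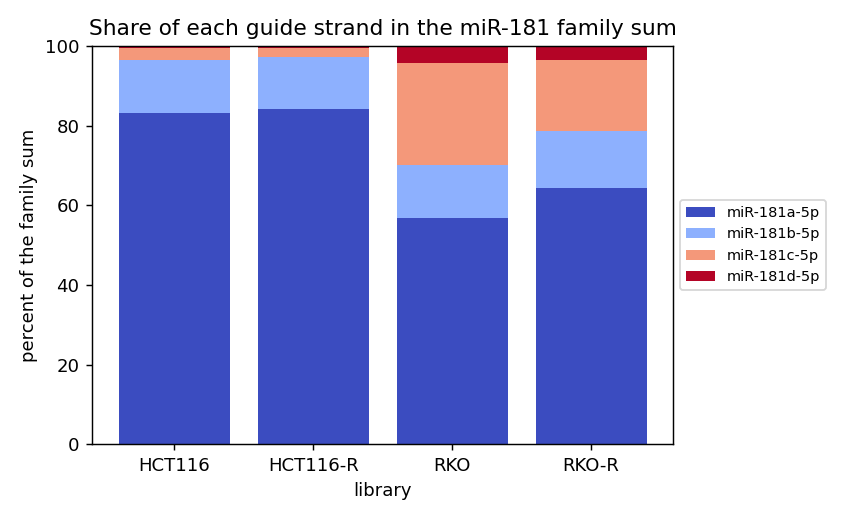
Share of each guide strand in the miR-181 family sum, in percent, 1 bar per library and 1 colour per guide strand. The share of miR-181c-5p and miR-181d-5p together was 3.60% and 2.67% in the HCT116 lineage, parental line first, against 29.9% and 21.4% in the RKO lineage.

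Ratios within a library do not depend on the scaling between libraries. Ratios between members of one locus type varied less than the ratio between the types. MiR-181c-5p outnumbered miR-181d-5p by 4.89 in HCT116 against 4.95 in HCT116-R, and 6.19 in RKO against 5.04 in RKO-R. MiR-181a-5p outnumbered miR-181b-5p by 6.30, 6.40, 4.32 and 4.55 in the same order, lower in the RKO lineage beyond counting error. The largest of these ratios exceeded the smallest by 1.27-fold for miR-181c-5p to miR-181d-5p and by 1.48-fold for miR-181a-5p to miR-181b-5p. In contrast, the ratio of miR-181a-5p plus miR-181b-5p to miR-181c-5p plus miR-181d-5p was 26.8 in HCT116 against 36.5 in HCT116-R, and 2.34 in RKO against 3.67 in RKO-R, a 15.6-fold span.

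Between parental and radioresistant libraries the latter ratio differed by 0.44 on the log2 scale in the HCT116 lineage and by 0.65 in the RKO lineage, higher in the radioresistant library of each. Counting error alone gave standard errors (SE) of 0.06 and 0.02. With the biological coefficient of variation (BCV) of 0.2 that the study's methods name, which is an assumed spread between libraries, the SE was 0.58 for both, which the HCT116 shift did not reach and the RKO shift passed only slightly. The differences between the parental lines and between the radioresistant lines, of -3.52 and -3.31 in RKO over HCT116 and in RKO-R over HCT116-R, were far larger than the same SE of 0.58.

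The passenger arms were read because those of miR-181a differ between its hairpins, unlike the guide strand. The arm of MIR181A1 on chromosome 1 is miR-181a-3p and that of MIR181A2 on chromosome 9 is miR-181a-2-3p (RefSeq, GRCh38.p14, 5′ to 3′), with the bases that differ in capitals.
miR-181a-3p: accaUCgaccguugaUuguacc
miR-181a-2-3p: accaCUgaccguugaCuguacc
From miR-181a-3p to miR-181a-2-3p the differences were U5C, C6U and U16C, counted from the 5′ end.

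MiR-181a-3p was found in all lines, with 761 counts in HCT116 against 637 in HCT116-R, and 609 in RKO against 704 in RKO-R, or 111.5 CPM (104 to 119.7), 93.4 (86.4 to 101), 85.3 (78.8 to 92.3) and 102 (94.6 to 109.6). MiR-181a-2-3p reached 572 counts in HCT116 against 579 in HCT116-R, or 83.8 CPM (77.2 to 91.0) and 84.9 CPM (78.3 to 92.1), and no count in RKO or RKO-R. A count of 0 allows up to 0.420 CPM in RKO and 0.434 CPM in RKO-R, taken as 3 counts of the total. MiR-181a-2-3p was thus at least 199.5-fold higher in HCT116 than in RKO, and at least 196-fold higher in HCT116-R than in RKO-R, against a floor of 3 counts per library. As a share of both arms together, it was 42.9% in HCT116 (40.3 to 45.6), 47.6% in HCT116-R (44.8 to 50.4), 0 of 609 counts in RKO, which allows up to 0.493%, and 0 of 704 in RKO-R, which allows up to 0.426%.

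By library totals, the level of miR-181a-5p, given above, was higher in RKO than in HCT116 and higher in RKO-R than in HCT116-R. It was lower in RKO than in HCT116-R, an order that turned with the denominator. Its counts exceeded those of miR-181a-3p by 37.7 in HCT116 against 56.0 in HCT116-R, and 58.1 in RKO against 54.8 in RKO-R, and those of both arms together by 21.5, 29.3, 58.1 and 54.8.

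**Figure D3:**
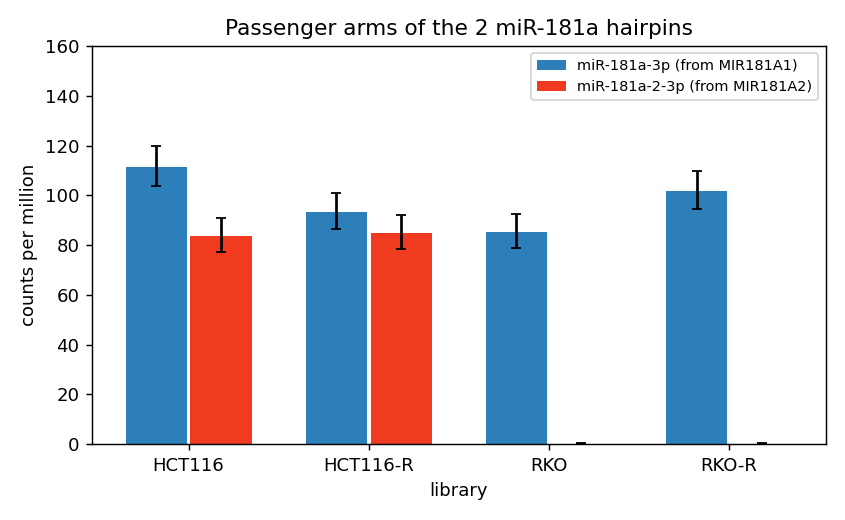
Level in CPM of the passenger arms miR-181a-3p, from MIR181A1 on chromosome 1, and miR-181a-2-3p, from MIR181A2 on chromosome 9, in each library, with black bars for the 95% Wilson confidence interval. MiR-181a-3p lay between 85.3 and 111.5 CPM in the 4 libraries, and miR-181a-2-3p was at 83.8 and 84.9 CPM in the HCT116 lineage, parental line first, without a count in the RKO lineage.

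The other passenger arms were near the limit of detection. MiR-181c-3p, from MIR181C, had 2 counts in HCT116 against 1 in HCT116-R, and 31 in RKO against 12 in RKO-R, so it was above 3 counts in the RKO lineage, where its guide strand was high. MiR-181b-2-3p, from MIR181B2 beside MIR181A2, had 6 counts in HCT116 and 0 in the other libraries. MiR-181b-3p, from MIR181B1, had 1, 3, 0 and 4 counts, and miR-181d-3p had 1 count in HCT116 and none elsewhere. The guide strands together exceeded all passenger arms by 25.7 in HCT116 against 34.7 in HCT116-R, and 97.1 in RKO against 83.2 in RKO-R.

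To ask whether the family changed with radioresistance, the library of each derivative was set against that of its parental line in edgeR's exact test at a BCV of 0.2, with TMM scaling and Benjamini-Hochberg adjustment over all miRNAs tested. A miRNA was called at an adjusted p under 0.05. Such a p compares 2 libraries and rests on the assumed BCV. The fit of all 4 libraries described below estimated a common BCV of 0.48 over 598 miRNAs, above the assumed 0.2. The SEs given here would be larger at that BCV. None of the 4 guide strands was called in HCT116-R against HCT116, where 4.01% of all 1322 miRNAs were called, and none in RKO-R against RKO, where 5.54% of 1155 were called. At an unadjusted p under 0.05, 0 of 4 passed in either pair, and the share of all miRNAs at that threshold is not given here. With only 4 members, a count of 0 is near the shares called and does not set the family apart.

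In HCT116-R the log2 fold changes were 0.29 (SE 0.41) for miR-181a-5p, 0.27 (SE 0.41) for miR-181b-5p, -0.15 (SE 0.41) for miR-181c-5p and -0.17 (SE 0.43) for miR-181d-5p, each with an adjusted p of 1 from edgeR. In RKO-R they were 0.41 (SE 0.41, adjusted p = 0.93 from edgeR), 0.33 (SE 0.41), -0.30 (SE 0.41) and -0.0016 (SE 0.41), the last 3 with an adjusted p of 1. The median over the members was 0.06 in HCT116-R and 0.17 in RKO-R, beside a median over all miRNAs with at least 100 counts in a library of -0.15 and 0.08. In absolute size, the member median was 0.22 against 0.42 for all such miRNAs in HCT116-R, and 0.32 against 0.49 in RKO-R.

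The family sum differed by 0.30 on the log2 scale in HCT116-R (edgeR, SE 0.41, adjusted p = 1) and by 0.23 in RKO-R (SE 0.41, adjusted p = 1). In the RKO pair this value depends on the scaling. TMM raised all log2 fold changes of RKO-R against RKO by 0.24 over library totals, and by library totals the family sum differed by -0.0077.

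The change with radioresistance was also compared between the lines. The log2 difference in change, RKO lineage minus HCT116 lineage, was 0.08 (SE 0.58) for miR-181a-5p, 0.03 (SE 0.58) for miR-181b-5p, -0.18 (SE 0.58) for miR-181c-5p and 0.14 (SE 0.60) for miR-181d-5p (likelihood ratio test of edgeR at a BCV of 0.2, adjusted p = 0.9997 for all 4). None was called, while 4.75% of 1474 miRNAs were. The sign of each of these differences turned under library totals or under the size factors of DESeq2. A fit of all 4 libraries with edgeR's quasi-likelihood test and cell line as a block, which takes the 2 lines as the only replicates, called none of the 4 guide strands (adjusted p = 0.998 for each) beside 0.669% of 598 miRNAs. Here 0 of 4 had an unadjusted p under 0.05, again without the share of all miRNAs at that threshold. DESeq2 also called 0 of the 4, while it called only 4 among all miRNAs.

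The lineages were then compared. In RKO against HCT116, miR-181c-5p was 13.6-fold higher in RKO (log2 fold change 3.77, SE 0.41, adjusted p = 5.6e-15 from edgeR) and miR-181d-5p was 10.7-fold higher (3.42, SE 0.42, adjusted p = 1.9e-12). In RKO-R against HCT116-R, miR-181c-5p was 14.2-fold higher (3.82, SE 0.41, adjusted p = 3.9e-15 from edgeR) and miR-181d-5p was 13.9-fold higher (3.80, SE 0.42, adjusted p = 1.7e-14). MiR-181a-5p and miR-181b-5p were not called in either comparison. For miR-181a-5p the log2 fold changes were 0.11 (adjusted p = 1) and 0.43 (adjusted p = 0.60), and for miR-181b-5p they were 0.65 (adjusted p = 0.29) and 0.92 (adjusted p = 0.095).

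The calls of 2 of 4 members stand beside 25.5% of 1289 miRNAs called in RKO against HCT116 and 23.2% of 1333 in RKO-R against HCT116-R. Among the 345 miRNAs tested in RKO against HCT116 that reached 100 counts in any of the 4 libraries, absolute log2 fold changes were ranked. That of miR-181c-5p was at or above that of 81.2% of them, and that of miR-181d-5p at or above that of 80.3%. The quasi-likelihood fit of all 4 libraries, with radioresistance as a block, gave log2 fold changes of RKO over HCT116 lineage of 3.79 for miR-181c-5p (adjusted p = 0.0032 from edgeR), 3.61 for miR-181d-5p (adjusted p = 0.0056), 0.79 for miR-181b-5p (adjusted p = 0.26) and 0.27 for miR-181a-5p (adjusted p = 0.71), with 28.3% of 598 miRNAs called. The 2 libraries of a lineage are not independent cultures of it, since a radioresistant line descends from its parental line.

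The passenger arms were tested in the same fits. MiR-181a-2-3p was called lower in RKO than in HCT116 (adjusted p = 8.4e-30 from edgeR) and lower in RKO-R than in HCT116-R (adjusted p = 1.1e-26), and miR-181c-3p was called higher (adjusted p = 0.00031 and 0.026). MiR-181a-3p was not called (log2 fold changes -0.51 and 0.46). Of the 6 passenger arms tested in RKO against HCT116, 1 was called higher and 1 lower, as were 1 and 1 of the 4 tested in RKO-R against HCT116-R. Over all miRNAs, 25.5% and 23.2% were called in these comparisons in either direction. MiR-181b-3p, miR-181b-2-3p and miR-181d-3p had at most 6 counts in any library, which leaves little room for a call. No passenger arm was called in HCT116-R against HCT116 or in RKO-R against RKO, where 4.01% and 5.54% of all miRNAs were.

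**Figure D4:**
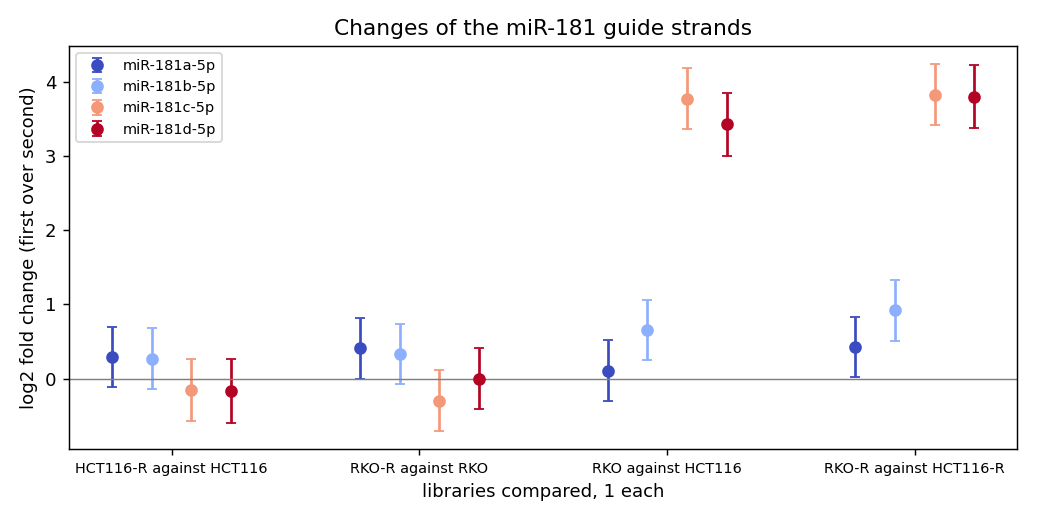
Log2 fold change of each guide strand in 4 comparisons of 1 library with another, first over second, with bars of 1 SE made from the counts and the assumed BCV of 0.2. The values of HCT116-R against HCT116 and RKO-R against RKO lay between -0.30 and 0.41, and miR-181c-5p and miR-181d-5p lay between 3.42 and 3.82 in the comparisons of the RKO with the HCT116 lineage.

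The family sum was not called between the lineages (log2 fold change 0.67, SE 0.41, adjusted p = 0.27 from edgeR for RKO against HCT116, and 0.81, SE 0.41, adjusted p = 0.16 for RKO-R against HCT116-R). The calls of miR-181c-5p and miR-181d-5p were made on reads divided between near-identical sequences, and whether they depend on that division was not tested. In the sums below, miR-181a-5p and miR-181b-5p hold most of the counts, so a change in the other member is diluted. Summed with miR-181a-5p, miR-181c-5p gave log2 fold changes of 0.61 (adjusted p = 0.33 from edgeR) and 0.74 (adjusted p = 0.22). Summed with miR-181b-5p, miR-181d-5p gave 1.00 (adjusted p = 0.060) and 1.19 (adjusted p = 0.021).

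Other guide strand families with several loci were summed in the same way, as values without a test. The log2 ratio of CPM of RKO over HCT116 was 0.78 for the 4 miR-181 guide strands, 1.10 for 9 of let-7 and miR-98, 1.74 for 5 of miR-30 and 1.31 for 3 of miR-29. The share of a family that would have to be reassigned between members to turn the make-up of HCT116 into that of RKO was 26.3% for miR-181, 42.3% for let-7 and miR-98, 40.8% for miR-30 and 4.41% for miR-29. Between HCT116 and HCT116-R the same share was 0.994% for miR-181, 9.36% for let-7 and miR-98, 18.2% for miR-30 and 15.3% for miR-29. Between RKO and RKO-R it was 8.52% for miR-181, 4.42% for let-7 and miR-98, 28.4% for miR-30 and 7.24% for miR-29, so miR-181 had the lowest share of the 4 families in the HCT116 pair but not in the RKO pair.

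The miRNAs with the pattern most like the family sum were sought among 340 miRNAs with at least 100 counts in a library, by the Euclidean distance between centred log2(CPM + 1) profiles over the 4 libraries. The nearest 5 were miR-362-5p at a distance of 0.17, miR-660-5p at 0.19, miR-19a-3p at 0.25, miR-92b-5p at 0.27 and miR-3605-3p at 0.28. MiR-362-5p had 155 CPM in HCT116 against 178 in HCT116-R, and 275 in RKO against 292 in RKO-R, and it was also the nearest to miR-181b-5p, at 0.11. MiR-421 was the nearest to miR-181a-5p, at 0.24. For miR-181c-5p and miR-181d-5p the nearest were farther away, miR-1304-3p at 0.62 and miR-3152-5p at 0.62, both with no count in HCT116 and HCT116-R.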

How the data were processed

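Total small RNA of 18 to 30 bases from the 4 lines was ligated to adapters with unique molecular identifiers and sequenced on a BGISEQ-500. The values the authors deposited are raw read counts, 1 per mature miRNA and library, not normalized. The submitters' processing notes name Bowtie2 and hg38, and the annotation release, the use of strand and the collapsing of identifiers are not given in the sources used here. Where a library did not list a miRNA, its count was set to 0.

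Counts were joined by name and groups were taken from the sample titles, and the doses from the study's methods. CPM used the library total of 6818497 to 7140460 counts, where 3 counts equal 0.420 to 0.440 CPM. Pairs of libraries were compared with the exact test of edgeR 4.0.16 (R 4.3.3), with TMM and a BCV of 0.2. The study's methods name edgeR and this BCV, and the exact test and TMM were chosen here. The interaction used the likelihood ratio test, and the fits of all 4 libraries used the quasi-likelihood test (filterByExpr, 1 residual degree of freedom). Counting error and the assumed BCV together gave the SE. Benjamini-Hochberg adjustment covered every miRNA tested. The scripts were tested on simulated data. Alternatives included DESeq2 1.42.0. Python 3.11.15 with scipy 1.17.1 was used.

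Named were the 4 guide strands, their passenger arms, miRNAs of the same seed, the nearest profiles and 3 comparison families. Members and lists were chosen with earlier results of these data known, and miR-200c-3p and miR-141-3p were named after their values were seen. All 4 guide strands and all 6 passenger arms matched RefSeq.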

Additional observations from a re-analysis of the deposited data

How the results depend on the processing

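The labels carry no replicate numbers, and libraries were paired only through cell line, as a block in the fit of all 4. The number of guide strands called kept within 1.5 times its value in 42 of 44 alternatives. Many of these belonged to the radioresistance comparisons, where 0 called stayed at 0, and 3 in place of 2 also counted as kept. The 42 thus says little about the calls between the lineages. The exceptions among the 44 were RKO against HCT116 and the RKO lineage against the HCT116 lineage with the closest paralogs summed. There 0 were called in place of 2. MiR-181a-5p and miR-181b-5p hold most of those sums, and whether the calls depend on how reads were divided was not tested. In RKO-R against HCT116-R the number stayed at 2 only because both members of 1 called sum were counted. There the sum of miR-181b-5p and miR-181d-5p was called (adjusted p = 0.021 from edgeR), and that of miR-181a-5p and miR-181c-5p was not (adjusted p = 0.22), so miR-181c-5p lost its call. At a BCV of 0.1, miR-181b-5p was also called in both lineage comparisons, giving 3 members, and the family sum was called there too (log2 fold changes 0.67 and 0.81, adjusted p = 0.0044 and 0.00038 from edgeR). At a BCV of 0.4 the 2 calls in each lineage comparison were left. At BCVs of 0.1 and 0.4, all miRNAs called in HCT116-R against HCT116 numbered 154 and 24, against 53 at 0.2. Those in RKO-R against RKO numbered 148 and 9 against 64. In RKO against HCT116, 420 and 152 of 1289 were called against 329. For RKO-R against HCT116-R it was 418 and 140 of 1333 against 309. Those of the interaction numbered 178 and 14 against 70.

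With library totals the family sum of RKO-R against RKO turned to -0.0077, and the differences between the lines turned to -0.14 for miR-181a-5p, -0.19 for miR-181b-5p and -0.0881 for miR-181d-5p. With DESeq2 size factors that of miR-181c-5p turned to 0.0557. None of these was called. Against library totals TMM moved log2 fold changes by -0.02 in the HCT116 pair, -0.13 in RKO against HCT116 and 0.33 in RKO-R against HCT116-R. Without 13 miRNAs in the denominator, the members of 2 antisense pairs and of the most abundant 10, which removed between 56.8% and 62.7% of the counts, the family sum was 11717 CPM in HCT116 against 14948 in HCT116-R, and 22914 in RKO against 23215 in RKO-R. With TMM, an alternative chosen after seeing the data, miR-181c-5p and miR-181d-5p made up 75.6% of the family difference between RKO and HCT116 and 46.2% of that between RKO-R and HCT116-R, against 66.5% and 69.0% by library totals. With passenger arms in the family sum, the share of miR-181c-5p and miR-181d-5p stayed within its counting interval in each library. Depth limits the passenger arms of miR-181b, miR-181c and miR-181d.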

Other observations

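Other miRNAs encoded within 100 kb of the 3 loci were looked up after the values of the family had been seen, and those found lie on the minus strand near MIR181C on chromosome 19, from 38039 to 38339 bases away (GENCODE release 29). MiR-23a-3p, from MIR23A, had 12322 CPM in HCT116 against 10059 in HCT116-R, and 7656 in RKO against 7195 in RKO-R. MiR-27a-3p, from MIR27A, had 19545 CPM in HCT116 against 12028 in HCT116-R, and 7132 in RKO against 8453 in RKO-R. The log2 ratios of RKO-R over HCT116-R were -0.48 for miR-23a-3p and -0.51 for miR-27a-3p, which TMM would raise by 0.33. By library totals both miRNAs were lower in the RKO lineage than in the HCT116 lineage. The other arms of these hairpins did not follow this order, since miR-23a-5p had 7.62, 6.31, 19.7 and 3.76 CPM and miR-27a-5p 510.2, 321, 502 and 394 CPM in HCT116, HCT116-R, RKO and RKO-R. MiR-24-3p, which is also made from a second hairpin, had 7516, 12909, 21307 and 12870.3 CPM in the same order. The passenger arm miR-24-2-5p, which is specific to the hairpin near MIR181C, had 3, 9, 22 and 14 counts. These are values of 1 library per line without a test.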
